A study of Mus musculus with 20 samples.

Results

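Galectin genes were followed across 20 RNA-sequencing libraries of CD8+ T cells sorted from tumours on day 4 after treatment. Rows of the deposited table were taken by gene symbol for 5 galectins, Lgals9, Lgals1, Lgals3, Lgals4 and Lgals8, out of 45777 rows, and all 5 were found. The members were chosen by galectin symbol and selected on a measured value, the FPKM of Lgals9 in the Combination group, which differed from the other groups, so every galectin value that involves the Combination is given here as a description with no test. The host animals were C57BL/6 mice of the hPD-1/hPD-L1/h4-1BB genotype, which carry human PD-1, PD-L1 and 4-1BB, and this was common to all groups, controls included. The tumour was MC38, a mouse colon carcinoma line, overexpressing human PD-L1. The groups of 5 libraries each were Control, Pembrolizumab (an antibody that blocks PD-1), ABL503 (a bispecific antibody against PD-L1 and 4-1BB) and Combination (ABL503+pembrolizumab). The age of the animals, what the Control animals received and whether each library came from its own animal are not given in the sources used here, so p-values reflect only how these libraries vary, which may be technical.

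Galectins are proteins that bind beta-galactoside sugars on glycoproteins. They leave cells without a classical signal peptide and cross-link receptors at the surface, and they also act inside the cell on vesicles. Galectin-1 is a prototype galectin that pairs with itself, galectin-3 is a chimera with a long flexible tail, and galectins 4, 8 and 9 are tandem-repeat galectins that join different sugar-binding domains in one chain. In tumours galectin-9 is best known as a ligand of TIM-3 on T cells, and in mice it has also been described to bind 4-1BB, one of the targets of ABL503. Galectin-1 is induced in activated T cells, and galectin-3 is abundant in macrophages and is induced in activated T cells as well.

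The promoters of Lgals9 and Lgals3 are shown because these were the members that passed the test in a comparison. RefSeq start-site windows of GRCm38.p6 (250 bases before to 50 after the start) were found for 4 of the 5 members, and Lgals1 was not matched. Both are printed 5′ to 3′ in the direction of the gene and cover the 250 bases before the start. Lgals9 lies on the minus strand (promoter chr11:78984925-78985174) and Lgals3 on the plus strand (promoter chr14:47373610-47373859). Capitals mark matches to the interferon-stimulated response element core, GAAA, any 2 bases and GAAA again, searched on both strands (on the opposite strand it reads TTTC, 2 bases, TTTC).
Lgals9: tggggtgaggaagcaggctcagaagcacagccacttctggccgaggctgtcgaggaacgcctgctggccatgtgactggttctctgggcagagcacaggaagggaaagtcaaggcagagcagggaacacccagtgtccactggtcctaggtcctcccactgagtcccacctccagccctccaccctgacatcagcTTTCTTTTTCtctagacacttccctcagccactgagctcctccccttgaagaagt
Lgals3: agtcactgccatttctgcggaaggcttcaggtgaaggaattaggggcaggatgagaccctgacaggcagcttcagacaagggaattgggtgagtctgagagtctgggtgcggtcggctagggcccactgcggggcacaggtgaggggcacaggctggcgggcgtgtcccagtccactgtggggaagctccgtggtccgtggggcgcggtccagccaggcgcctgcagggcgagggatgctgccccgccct

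The Lgals9 window held 2 matches to that core, on the opposite strand, starting at positions -55 and 16 from the start. The match after the start is shown with its surroundings (chr11:78984890-78984919, minus strand).
Lgals9 after the start: atagctgtggTTTCTGTTTCctagctcagc
Of 32851 RefSeq windows of the same length, 3.44% held at least 1 match and 0.225% held 2 or more. No match to this core was in the windows of Lgals3, Lgals4 and Lgals8. The gamma-activated site core TTCNNNGAA, held by 8.3% of windows, and the kappaB-type core, GGG, any 2 bases and TTTCC, held by 1.63%, were in none of the 4 windows. A match is a description of the letters and not a bound site.

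Values are taken as FPKM, fragments counted per length of gene model and per size of library. The deposited table names no unit, so setting levels of different genes side by side rests on this inference. Column sums ran from 575918 to 654333, and read depth is unknown. The sort markers were present in every library, with a summed level of 6 CD8 T-cell markers between 3098 and 5830 FPKM, while Cd4 and Foxp3 together stayed at or below 2.42 FPKM. Markers of myeloid and dendritic cells, 25 genes, were above 0 in at least 1 library each and summed to between 65.4 and 108 FPKM in the Combination, 72.6 and 215 in Pembrolizumab, 158 and 337 in ABL503, and 178 and 610 in Control. Their group mean was under 1 FPKM for 14 of the 25 in the Combination, 12 in ABL503, 11 in Pembrolizumab and 10 in Control. Of the 15 that were tested, 1 rose and 1 fell in Pembrolizumab, 0 passed in ABL503, and 1 rose and 4 fell in the Combination, where 5.55%, 0.619% and 12.6% of all tested genes passed. The MHC class II genes Cd74 and H2-Ab1 had the highest Control means of this list, at 115 and 54.3 FPKM. They averaged 29.9 and 12 FPKM in the Combination. Cd68 averaged 18.9 FPKM in Control and 19.7 in the Combination, and Zbtb46 3.31 and 6.33. Epithelial or tumour markers, 10 genes of which 1 was at 0 throughout, summed to between 15.3 and 20.2 FPKM in Control, 9.39 and 19.4 in Pembrolizumab, 11.2 and 17 in ABL503 and 9.55 and 13.6 in the Combination. In sorted bulk cells, fewer cells of a type and less RNA per cell cannot be told apart.

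The galectin RNA of these cells was mostly Lgals1. Over the 20 libraries Lgals1 ran from 1019 to 2746 FPKM (median 1689), Lgals3 from 348 to 826 (median 582), Lgals9 from 74.6 to 158 (median 97.9), Lgals8 from 5.67 to 11.4 (median 7.96) and Lgals4 from 1.51 to 6.18 (median 2.45). Neighbours in this order did not overlap except Lgals8 and Lgals4, whose ranges met between 5.67 and 6.18 FPKM. Lgals1 made up between 65.8% and 80.3% of the summed galectin FPKM of a library, Lgals3 between 15.4% and 30.5%, and Lgals9 between 2.74% and 7.1%. The other galectin genes were low. Lgalsl, a galectin-related gene, ran from 0.932 to 2.83 FPKM and Lgals7, best known from skin, from 0 to 3.27, while Lgals2 and the lens galectin Grifin stayed at or below 0.151 and 0.522 FPKM and Lgals12 was listed at 0 in all 20 libraries. Lgals7 and Lgalsl, the 2 of these that were tested, passed in no treated group against Control in limma (0 at an unadjusted p under 0.05 in each). Lgals6 and Clc were looked up too and had no row under those symbols in the deposited table. The pseudogene Lgals1-ps1 was listed above 0 in 2 libraries and reached 0.0828 FPKM.

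**Figure D1:**
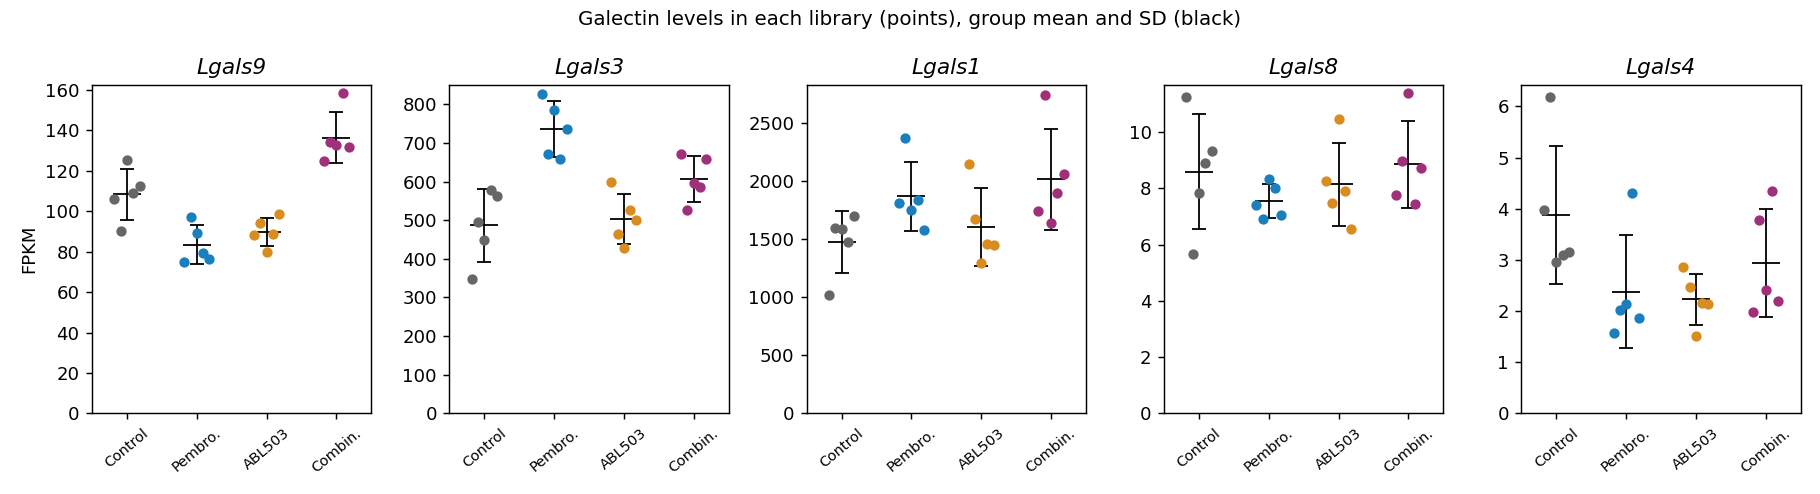
FPKM of each galectin gene in each library (points, 5 per group), with the group mean and SD in black and a separate linear axis from 0 for each gene. Lgals9 sits highest in the Combination (125 to 158 FPKM) and lowest in Pembrolizumab (74.6 to 97.3), and Lgals3 sits highest in Pembrolizumab (657 to 826).

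Pembrolizumab libraries were set against Control libraries for the effect of blocking PD-1 by itself. A pair of galectins moved in opposite directions: Lgals3 rose and Lgals9 fell. Passing meant an adjusted p (Benjamini-Hochberg) below 0.05 in limma over 11794 genes, and 2 of the 5 members passed where 5.55% of all tested genes did. The median log2 change of the members was -0.14 and that of all tested genes -0.03.

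Lgals3, the chimera galectin, stood at 348, 496, 448, 579 and 564 FPKM in the Control libraries. It stood at 826, 671, 784, 657 and 736 FPKM in the Pembrolizumab libraries, all above every Control library, which was the case in one direction or the other for 6.12% of tested genes. The group means were 487 ± 93.9 and 735 ± 72.3 FPKM (SD, n = 5 each), a log2 change of 0.61 (SE 0.12, 95% interval 0.36 to 0.87, adjusted p = 0.006). The call held without each of the 10 libraries in turn, with adjusted p from 0.0049 to 0.0226. With the level of myeloid and dendritic markers as a covariate the change was 0.60 (adjusted p = 0.0125).

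Lgals9, the tandem-repeat galectin and TIM-3 ligand, stood at 106, 90.2, 125, 109 and 112 FPKM in the Control libraries. It stood at 74.6, 97.3, 89.1, 79.2 and 76.5 FPKM in the Pembrolizumab libraries. All 5 were below the Control mean, and the groups overlapped through Control 2, the lowest Control library, and Pembrolizumab 2. The means were 108 ± 12.6 and 83.4 ± 9.58 FPKM (SD, n = 5 each), and Lgals9 fell by 0.38 on the log2 scale (SE 0.10, 95% interval -0.57 to -0.18, adjusted p = 0.025). The call ended with adjusted p = 0.0538 when no filter on low values was applied and 0.0745 when only these groups were fitted. It also ended without Control 3 (log2 change -0.32, adjusted p = 0.0598), Control 4 (-0.37, 0.0504), Pembrolizumab 1 (-0.34, 0.0699) and Pembrolizumab 5 (-0.35, 0.0633). Control 3 had both the highest Control value of Lgals9 and the highest summed myeloid and dendritic markers of all libraries (610 FPKM). With those markers as a covariate the change of Lgals9 was -0.33 (adjusted p = 0.0475).

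The ratio of Lgals3 to Lgals9 within a library does not depend on how libraries are scaled. It ran from 6.89 to 11.1 in Pembrolizumab, from 3.29 to 5.5 in Control, from 4.94 to 6.81 in ABL503 and from 3.7 to 5.38 in the Combination. Every Pembrolizumab library was therefore above every library of the other groups, a ratio chosen after the values were seen and not tested.

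**Figure D2:**
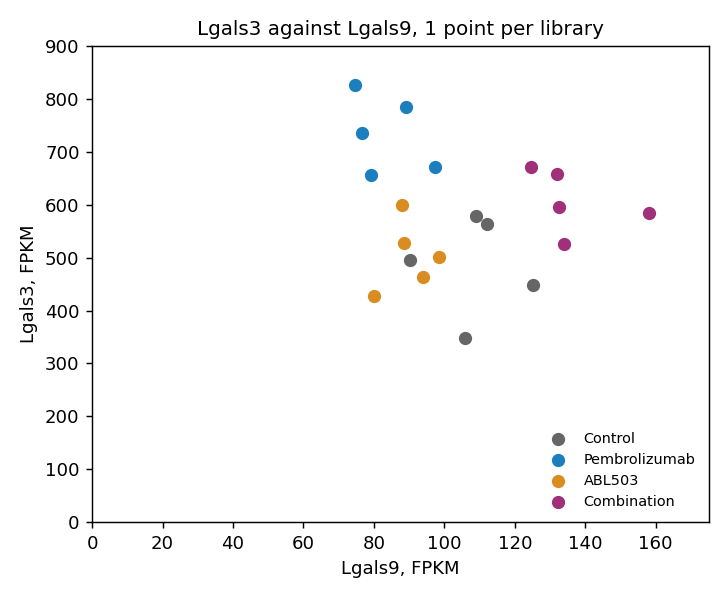
Lgals3 (FPKM, vertical) against Lgals9 (FPKM, horizontal), 1 point per library, coloured by group. Pembrolizumab libraries lie at the upper left (Lgals3 from 657 to 826, Lgals9 from 74.6 to 97.3) and Combination libraries at the right (Lgals9 from 125 to 158).

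Lgals1, Lgals4 and Lgals8 did not pass in Pembrolizumab. Lgals1, the prototype galectin, averaged 1477 ± 268 FPKM in Control and 1872 ± 298 in Pembrolizumab (SD, n = 5 each). All 5 Pembrolizumab libraries were above the Control mean, and the groups overlapped (log2 change 0.35, 95% interval 0.02 to 0.68, adjusted p = 0.22). Lgals4, a galectin of gut epithelium, averaged 3.87 ± 1.35 and 2.38 ± 1.1 FPKM (log2 change -0.54, 95% interval -0.99 to -0.09, adjusted p = 0.15). Without Pembrolizumab 4, whose 4.31 FPKM was the highest of its group, Lgals4 passed (log2 change -0.71, adjusted p = 0.0453). Lgals8, which recognises damaged vesicles inside cells, averaged 8.59 ± 2.05 and 7.54 ± 0.612 FPKM (log2 change -0.14, 95% interval -0.45 to 0.17, adjusted p = 0.65).

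The next comparison, of ABL503 with Control, concerned the bispecific antibody by itself. In limma 0 of the 5 members passed, where 0.619% of all tested genes passed. At an unadjusted p under 0.05 there were 2, and the share of all tested genes under that threshold was not counted. Lgals9 stood at 88, 93.9, 80, 88.7 and 98.6 FPKM in the ABL503 libraries, all below the Control mean but overlapping the Control range. The mean was 89.8 ± 6.99 FPKM (SD, n = 5), a log2 difference from Control of -0.26 (SE 0.10, 95% interval -0.46 to -0.07, adjusted p = 0.27). Lgals4 averaged 2.23 ± 0.501 FPKM in ABL503, and each of its 5 libraries was below every Control library, a separation found in one direction or the other for 2.59% of tested genes (log2 difference -0.57, 95% interval -1.02 to -0.12, adjusted p = 0.31). The summed epithelial or tumour markers had a median of 15.2 FPKM in ABL503 and 12.8 in Pembrolizumab against 17.7 in Control, and their part in the Lgals4 differences was not tested.

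Lgals3 and Lgals1 lay closer to Control after ABL503. Lgals3 stood at 599, 463, 427, 527 and 501 FPKM, overlapping Control, with ABL503 1 above the highest Control library. Its mean was 503 ± 65.4 FPKM (SD, n = 5), a log2 difference of 0.06 with a 95% interval of -0.19 to 0.32 (adjusted p = 0.90). Lgals1 averaged 1608 ± 333 FPKM (0.12, 95% interval -0.21 to 0.46, adjusted p = 0.84) and Lgals8 8.13 ± 1.46 FPKM (-0.06, 95% interval -0.37 to 0.25, adjusted p = 0.93). These intervals leave room for differences of either sign.

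ABL503 set against Pembrolizumab asked how the antibodies given alone differed. Lgals3 was lower after ABL503 by 0.55 on the log2 scale (log2 difference -0.55, SE 0.12, 95% interval -0.80 to -0.29, adjusted p = 0.031), and all 5 ABL503 libraries lay below all 5 Pembrolizumab libraries. It was 1 of the 5 members to pass, where 1.28% of tested genes passed and 3.73% had groups that did not overlap. The call ended with no filter on low values (adjusted p = 0.0827). It also ended without ABL503 2 (-0.52, 0.0853), ABL503 3 (-0.49, 0.0961), ABL503 4 (-0.57, 0.0533) or ABL503 5 (-0.55, 0.0628), and without Pembrolizumab 1 (-0.50, 0.084), Pembrolizumab 3 (-0.52, 0.0729) or Pembrolizumab 5 (-0.55, 0.0579). Lgals9 did not pass (0.11, 95% interval -0.09 to 0.31, adjusted p = 0.65), nor did Lgals1 (-0.23, adjusted p = 0.56), Lgals4 (-0.03, adjusted p = 0.97) and Lgals8 (0.09, adjusted p = 0.86).

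**Figure D3:**
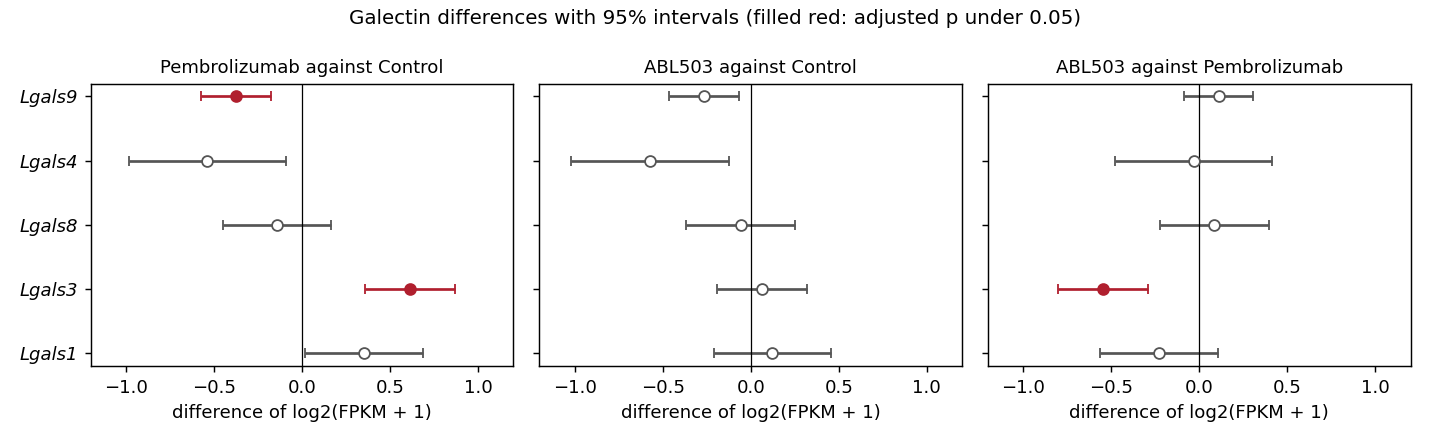
Differences of log2(FPKM + 1) for the 5 galectin genes in the comparisons without the Combination, as points with 95% intervals from limma, filled red where the adjusted p was under 0.05. Lgals3 (0.61) and Lgals9 (-0.38) lie on opposite sides of 0 in Pembrolizumab against Control, and Lgals3 (-0.55) is the filled point in ABL503 against Pembrolizumab.

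The Combination is the group on which Lgals9 was chosen. Lgals9 stood at 124.7, 134, 133, 158 and 132 FPKM there, with a mean of 136 ± 12.7 (SD, n = 5). The lowest of these fell just under the highest Control library (125.2 FPKM), and all 5 lay above every Pembrolizumab and every ABL503 library. The log2 difference was 0.33 from Control, 0.71 from Pembrolizumab and 0.60 from ABL503, or 1.26, 1.63 and 1.52 times the mean FPKM of those groups. Each antibody alone went with a lower Lgals9 mean than Control (-0.38 and -0.26 on the log2 scale), so the Combination lay 0.97 above the sum of those differences. Groups that did not overlap in either direction were found for 2.76% of tested genes against Pembrolizumab and 5.93% against ABL503. The Combination libraries also had low summed myeloid and dendritic markers (65.4 to 108 FPKM, against 178 to 610 in Control). With those markers as a covariate the log2 differences of Lgals9 were 0.46, 0.79 and 0.72. The markers did not overlap between Combination and Control, so this fit cannot separate their level from treatment.

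The other galectins are given for the Combination in the same way. Lgals3 stood at 671, 526, 596, 585 and 657 FPKM there, with a mean of 607 ± 58.9 (SD, n = 5), between the Control and Pembrolizumab means. It lay 0.34 above Control on the log2 scale and 0.27 below Pembrolizumab (log2 difference -0.27). Lgals1 averaged 2020 ± 435 FPKM, with Combination 2 highest at 2746, and its log2 difference from Pembrolizumab was 0.10, and -0.02 without that library. Lgals1 had a log2 difference from Control of 0.45 against 0.35 for Pembrolizumab and 0.12 for ABL503. The Combination lay above the sum of the differences for ABL503 and Pembrolizumab for Lgals4 (0.80) and Lgals8 (0.25) as it did for Lgals9, and at -0.02 from it for Lgals1 and -0.34 for Lgals3. Lgals4 averaged 2.94 ± 1.06 FPKM and Lgals8 8.85 ± 1.55, with log2 differences from Control of -0.31 and 0.05 and groups that overlapped. The difference of Lgals8 from Control was -0.07 without Control 2 and -0.03 without Combination 3. The group means of Lgals8 had the same order as those of Lgals9, with the Combination highest and Pembrolizumab lowest.

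The members did not share a profile over the libraries. After group means were taken out, Pearson's r between members ran from -0.36 (Lgals1 and Lgals8) to 0.33 (Lgals1 and Lgals3) over the 20 libraries, and it was -0.10 for Lgals9 and Lgals3. These values and those that follow are descriptions of libraries that fall into 4 groups. Among 9299 named genes the most like Lgals9 were Rab8a, a GTPase of vesicle traffic (Pearson's r = 0.80, Spearman's rho = 0.73), Commd8 (0.79 and 0.81), the fatty acid dehydrogenase gene Acadl (0.78 and 0.74), the lymphocyte receptor gene Cd96 (0.77 and 0.77) and the interferon-induced GTPase gene Mx1 (0.76 and 0.72). Within groups their r with Lgals9 was 0.40, 0.30, 0.45, 0.46 and 0.32. Each of these genes had its highest group mean in the Combination, as Lgals9 did, which a ranking over all 20 libraries favours. Rab8a averaged 105 FPKM there against 77.9 in Control, 74.7 in Pembrolizumab and 68.1 in ABL503.

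Lgals3 and Lgals1 had other neighbours. Lgals3 was most like Bax, a cell-death effector (r = 0.89), the T-cell membrane gene Ms4a4b (0.88), the cytotoxic granule gene Nkg7 (0.86), Smap2 (0.85) and the peroxiredoxin gene Prdx5 (0.84), with r within groups from 0.57 for Smap2 to 0.77 for Prdx5. Nkg7 averaged 7321 FPKM in Pembrolizumab and 6938 in the Combination, against 4722 in Control and 4935 in ABL503. Lgals1 was most like Ndufc2 and Ndufv2 of respiratory complex I (r = 0.93 and 0.89), Mrpl42 of the mitochondrial ribosome (0.90), the ubiquitin-like Nedd8 (0.89) and Rbx1 of cullin ligases (0.89). For these the r within groups ran from 0.85 for Ndufv2 to 0.95 for Ndufc2. Lgals4 was most like Nradd (0.77), Rgs10 (0.76), Slc15a4 (0.75), Eif4ebp3 (0.71) and Evi2a (0.71), and Lgals8 most like Fbxw9 (0.81), Uba7 (0.81), Xab2 (0.79), Tmem63a (0.79) and Traf2 (0.79).

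Some genes of proteins that galectins bind on T cells passed in each treated group. The list held 19 genes known from work on single galectins, of which 18 were tested. It was drawn up with earlier results of these data known, so its counts are given as a description. The comparisons below share the Control libraries. After pembrolizumab 4 rose and 1 fell, after ABL503 2 rose and 0 fell, and after both antibodies 4 rose and 2 fell, against 5.55%, 0.619% and 12.6% of all tested genes passing. Their median log2 change was 0.12, -0.07 and 0.21, and that of all tested genes -0.03, -0.01 and -0.04. Unadjusted p was under 0.05 for 9, 4 and 10 of the 18, a threshold at which the share of all tested genes was not counted.

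Havcr2, which encodes TIM-3, the receptor of galectin-9, stood at 26.9, 42.9, 46.6, 40.7 and 55.9 FPKM in Control and at 84.1, 86.2, 92.3, 79.7 and 77.9 in Pembrolizumab. It stood at 67.3, 60, 68.6, 71.9 and 65.9 FPKM in ABL503 and at 74.8, 85.6, 50.6, 62.8 and 74.4 in the Combination. All ABL503 and Pembrolizumab libraries were above every Control library, and the Combination overlapped Control through Combination 3. Groups did not overlap in one direction or the other for 2.59% of tested genes in ABL503 and 6.12% in Pembrolizumab. The log2 change of Havcr2 was 1.0 in Pembrolizumab (SE 0.15, adjusted p = 0.00065), 0.67 in ABL503 (SE 0.15, adjusted p = 0.039) and 0.71 in the Combination (SE 0.15, adjusted p = 0.0041). In ABL503 the call of Havcr2 was lost without 9 of the 10 libraries (adjusted p up to 0.0907, without ABL503 3), with no filter and with only these groups fitted. Havcr2 was thus higher than in Control where Lgals9 was lower, in Pembrolizumab, and where Lgals9 was higher, in the Combination.

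Tnfrsf9, the 4-1BB gene, stood at 131, 101, 97.4, 103 and 104 FPKM in Control and at 293, 246, 237, 184 and 243 in Pembrolizumab. It stood at 161, 139, 167, 163 and 183 FPKM in ABL503 and at 248, 255, 230, 242 and 320 in the Combination. Every treated library was above every Control library. Groups did not overlap in one direction or the other for 6.12% of tested genes in Pembrolizumab and 2.59% in ABL503. For the Combination against Control this share is not given here, so that separation is a description without its background. The log2 change of Tnfrsf9 was 1.15 in Pembrolizumab (SE 0.12, adjusted p = 1.11e-05), 0.60 in ABL503 (SE 0.12, adjusted p = 0.014, and 0.0542 without ABL503 5) and 1.26 in the Combination (SE 0.12, adjusted p = 4.25e-06). How reads of the human 4-1BB and PD-1 sequences were counted under the mouse symbols is not given in the sources used here.

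Other surface partners changed in part. Cd7, a T-cell glycoprotein bound by galectin-1, fell in Pembrolizumab from 187 ± 29.6 to 68.2 ± 9.38 FPKM (SD, n = 5 each; log2 change -1.44, adjusted p = 0.0043) and was lower in the Combination too, at 52 ± 27.4 (log2 change -1.99, adjusted p = 9.76e-05). Lamp2, a lysosomal membrane glycoprotein, rose in the Combination from 14.9 ± 2.02 to 25.6 ± 4.03 FPKM (0.74, adjusted p = 0.0014) and in Pembrolizumab to 21.4 ± 4.42 (0.48, adjusted p = 0.037). Lag3, an inhibitory receptor described to bind galectin-3, rose in Pembrolizumab from 1.05 ± 0.122 to 3.16 ± 1.06 FPKM (0.99, adjusted p = 0.017). Pdcd1, the PD-1 gene, rose in the Combination from 47.3 ± 23.8 to 78.3 ± 18.2 FPKM (0.80, adjusted p = 0.03), and Tnfrsf25, the gene of the death receptor DR3, fell from 6.19 ± 2.63 to 2.43 ± 1.15 (-1.06, adjusted p = 0.013). Some calls of this group ended in other fits. Lamp2 in Pembrolizumab was lost without 7 of 10 libraries (adjusted p up to 0.106, without Pembrolizumab 1). It was also lost with no filter, equal column sums, only these groups and the myeloid and dendritic covariate. Lag3 was lost with no filter (adjusted p = 0.0543) and without Pembrolizumab 3 (0.051). Pdcd1 was lost without 6 of 10 libraries (adjusted p up to 0.0919, without Control 1). No filter, only these groups and the myeloid and dendritic covariate also ended the call of Pdcd1 (up to 0.176). Cd44, Ptprc and Spn, whose CD44, CD45 and CD43 proteins are classical galectin counter-receptors, passed in none of these comparisons, with log2 changes of 0.19, 0.11 and 0.42 in Pembrolizumab and 0.01, -0.02 and 0.25 in the Combination.

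**Figure D4:**
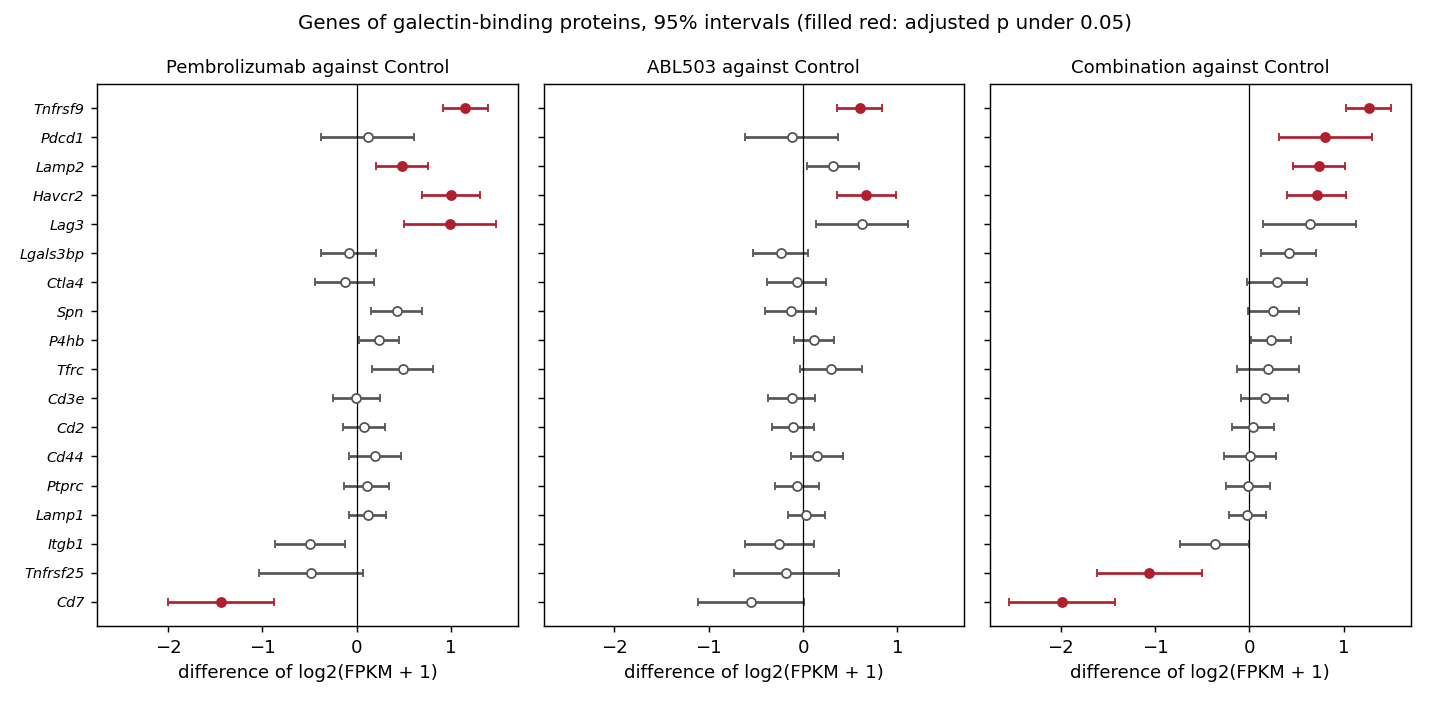
Differences of log2(FPKM + 1) from Control for 18 tested genes of galectin-binding proteins, with 95% intervals from limma, filled red where the adjusted p was under 0.05. Tnfrsf9 and Havcr2 are filled to the right of 0 in all 3 panels, and Cd7 is filled to the left in Pembrolizumab (-1.44) and the Combination (-1.99).

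Genes that build or cap the sugars that galectins read were compared next, with 5.55%, 0.619% and 12.6% of all tested genes passing in Pembrolizumab, ABL503 and Combination libraries. Of 11 tested N-glycan branching genes, limma called 0 in Pembrolizumab and 0 in ABL503 (0 and 0 at an unadjusted p under 0.05) and 2 in the Combination, both lower. These were the mannosidase genes Man1a, from 8.9 ± 0.426 to 6.38 ± 0.969 FPKM (log2 change -0.43, adjusted p = 0.031), and Man2a2, from 2.17 ± 0.604 to 1.07 ± 0.169 (-0.60, adjusted p = 0.013). With the myeloid and dendritic covariate neither passed (0.0584 for Man2a2). The call of Man1a was also lost with no filter and without 6 of 10 libraries (adjusted p up to 0.0871, without Combination 2). Mgat5, which makes the branch that carries the best galectin ligands, gave -0.29, -0.24 and -0.41 in Pembrolizumab, ABL503 and the Combination (adjusted p = 0.41, 0.66 and 0.15) and was chosen after its values were seen. Of 9 tested genes of LacNAc and O-glycan synthesis limma called 0 in each of these comparisons (0, 1 and 2 at an unadjusted p under 0.05), and of 6 tested genes of sialic acid capping and removal also 0 (0, 0 and 1).

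Genes of the response to damaged vesicles, which galectins 3, 8 and 9 are known to mark, passed at shares near those of all genes. Of the 10 tested genes, 1 fell and 0 rose in Pembrolizumab and in the Combination, against 5.55% and 12.6% of all tested genes passing, and 0 passed in ABL503 (0 at an unadjusted p under 0.05, against 0.619%). Map1lc3b, an LC3 gene of autophagy, fell from 501 ± 41.9 FPKM in Control to 393 ± 39.9 in Pembrolizumab (log2 change -0.35, adjusted p = 0.035) and to 389 ± 52.1 in the Combination (-0.37, adjusted p = 0.015). The Pembrolizumab call of Map1lc3b ended without 6 of 10 libraries (adjusted p up to 0.0912, without Control 4). It also ended with no filter, only the groups compared or the replicate block (adjusted p up to 0.082).

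Interferon response genes were listed because galectin-9 is known as interferon-inducible. Of 16 tested, 0 rose and 2 fell in Pembrolizumab, 0 passed in ABL503, and 2 rose and 3 fell in the Combination, against 5.55%, 0.619% and 12.6% of all tested genes passing. In ABL503 5 had an unadjusted p under 0.05, and these (Ifit1, Ifit3, Oasl2, Irf7 and Gbp2, named after their values were seen) were all lower. The share of all tested genes under that threshold was not counted. The median log2 change of the 16 was -0.15, -0.29 and -0.17, and that of all tested genes -0.03, -0.01 and -0.04. In Pembrolizumab, where Lgals9 fell, Ifit3 fell from 35.4 ± 14.3 to 17.5 ± 2.15 FPKM (log2 change -0.89, adjusted p = 0.026) and Irf1, a transcription factor induced by interferon gamma, from 232 ± 41.2 to 160 ± 12.9 (-0.52, adjusted p = 0.047). The call of Ifit3 ended without 5 of 10 libraries (adjusted p up to 0.0751) and that of Irf1 without 9 of 10 (up to 0.131). In each case the highest value came without Control 1. Both calls were also lost with no filter, and Ifit3 with only these groups fitted. Irf1 was lost too with quantile normalization and with the myeloid and dendritic covariate. In the Combination Bst2, which encodes tetherin, rose from 87 ± 10.8 to 124 ± 13.5 FPKM (0.51, adjusted p = 0.0076), and Mx1, an antiviral GTPase gene, from 6.24 ± 1.26 to 10.8 ± 2.36 (0.69, adjusted p = 0.017). Oasl2 fell there from 1.72 ± 0.472 to 0.48 ± 0.258 FPKM (-0.88, adjusted p = 0.0068), and Ifit1 and Ifit3 gave -0.61 and -0.71 (adjusted p = 0.038 and 0.046). With the myeloid and dendritic covariate Mx1 (adjusted p = 0.0681), Oasl2 (0.0921), Ifit1 and Ifit3 no longer passed, and Bst2 did. The Combination calls of Ifit1 and Ifit3 were each lost without 6 of 10 libraries. They were also lost with no filter, array weights or only the groups compared.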

How the data were processed

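The members and gene lists were chosen with earlier results of these data known. RNA of sorted CD8+ T cells was made into libraries with the SMART-Seq v4 kit, per the labels' protocols. HISAT2 and StringTie were the tools and GRCm38 (mm10) the build, per the submitters' processing notes, and versions, annotation and strand handling are not given in the sources used here. The deposited values are taken as FPKM made by the authors. This unit is inferred, since the table names none, holds fractional values and sums to a different total in each column. No scaling between libraries is stated, and 0 pairs of libraries were identical.

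All 20 libraries, grouped by their titles, entered 1 fit. The fit kept genes that reached 1 FPKM in 5 or more libraries (11794 genes, all 5 members among them). limma 3.58.1 in R 4.3.3 fitted log2(FPKM + 1) with 1 mean per group, a shared spread with 16 residual degrees of freedom and an intensity trend. Tests were two-sided, with Benjamini-Hochberg adjustment over all genes within a comparison and a threshold of 0.05. Differences on this scale understate changes of low genes. The steps were tested on simulated data. Genes of 7 lists (90 symbols) were named if they passed, up to 4 per list and comparison, with Havcr2 and Tnfrsf9 always. The genes most like a member were the 5 with the highest Pearson's r, leaving out predicted models, small RNAs, pseudogenes and receptor segments. Alternative settings were no filter, a pseudocount of 0.1, quantile normalization, equal column sums, array weights, only the groups compared, a replicate block, a marker covariate and leaving out each library. The marker covariate differed between groups, so fits with it cannot fully separate marker level from treatment. Python 3.11.15 with matplotlib 3.10.9 drew the figures.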

Additional observations from a re-analysis of the deposited data

Results flagged for a closer look

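Lgals9 in Combination replicate 4, at 158 FPKM, stood apart from the other 4 libraries of its group, which ran from 125 to 134. Without each Combination or Control library in turn the log2 difference of Lgals9 from Control ran from 0.27 to 0.38. Lgals4 in Pembrolizumab replicate 4, at 4.31 FPKM, stood apart from the others, which ran from 1.58 to 2.13. Of 20 sets of 5 libraries examined, chance marks about 1 in 20.

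The difference of Lgals9 between pembrolizumab and no pembrolizumab had opposite signs with and without ABL503. All 5 Pembrolizumab libraries lay below the Control mean and all 5 Combination libraries above the ABL503 mean, and on the log2 scale these differences were 0.97 apart. The same held for ABL503 with and without pembrolizumab, again 0.97 apart, since it is the same contrast. The difference was not tested, because Lgals9 was chosen on the Combination.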

How the results depend on the processing

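In Pembrolizumab against Control 2 galectins passed, and 1 with no filter or only the groups compared. Leaving out each library gave 1 to 3. In ABL503 against Pembrolizumab 1 passed, and 0 with no filter or the replicate block, with 0 to 1 over left-out libraries. In ABL503 against Control 0 passed in every setting run. Of the pathway list genes, 8 passed in Pembrolizumab, 3 with no filter, 5 with only the groups compared and 4 to 10 over left-out libraries. In ABL503 2 passed, 1 with no filter, only the groups compared or the replicate block, and 0 to 3 over left-out libraries. In the Combination 14 passed, 7 with the marker covariate and 10 to 19 over left-out libraries. Signs turned for galectin differences that passed in no setting and for small differences of the Combination, which had no test. For Lgals4 in ABL503 against Pembrolizumab (-0.03) it was 0.0493 with array weights, and left-out libraries gave -0.12 to 0.14. In ABL503 against Control they gave -0.00551 to 0.194 for Lgals1, -0.0531 to 0.130 for Lgals3 and -0.181 to 0.0385 for Lgals8. In the Combination they gave -0.07 to 0.15 for Lgals8 against Control and -0.02 to 0.19 for Lgals1 against Pembrolizumab. Same-numbered libraries correlated by -0.15 to 0.11 in their deviations from the group means (30 pairs, 2 over 0.1), so the numbers were not taken to pair them. With the block the calls of Lgals3 in ABL503 against Pembrolizumab (adjusted p = 0.0501), Havcr2 in ABL503, Map1lc3b in Pembrolizumab and Ifit3 in the Combination were lost, and the other named calls held. The cause of these changes was not tested. Depth is unknown, so its limits on Lgals4 and Lgals8 cannot be given.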
